A study of Gallus gallus with 12 samples.

Results

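RAD54L2, LSG1, CCSAP, MACIR and MELTF are 5 genes that a light pulse raised in the chick pineal gland at every circadian time examined, and that belong to none of the sterol, chaperone or clock gene groups raised with them. BIRC8, LONRF1 and LONRF3 were raised at all 3 times too and lie outside those groups, but are not among the 5. The 5 genes were chosen from measured values, namely the light minus dark changes at the 3 times, and every array probe set whose single annotated gene is 1 of the 5 was followed. This gave 11 of the 38439 probe sets on the array other than controls, and 5 of the 10424 genes that had a tested probe set. Of the 11 probe sets, 9 were bright enough to be tested, and 6 of these carried the rise at all 3 times. Since those changes chose the genes, they are given below as a description, without a test.

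Male chicks 8 days of age were used, all kept for 7 days under 12 h of light and 12 h of dark and then for a day in constant darkness. The light groups were exposed for 1 h from circadian time (CT) 6, which falls in the subjective day, from CT14, soon after subjective night begins, or from CT22, towards its end. Dark controls at the same times were given no pulse. Glands were isolated when the pulse ended. The CT6 light, CT14 light, CT22 light, CT6 dark, CT14 dark and CT22 dark groups held 2 Affymetrix arrays each, every array carrying 9 µg of total RNA from a pool of 6 glands, so the spread between arrays is a spread between pools, and precision is limited by having few arrays. The design asks if the time of day alters what light does to gene expression.

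The avian pineal gland senses light through its own opsins, keeps a circadian clock and makes melatonin at night. Light can therefore act on pineal cells directly, both on the clock and on genes outside it. Here the pulse was given to whole chicks, so a direct action was not tested. The 5 genes serve unlike processes, as known mostly from human and yeast proteins. RAD54L2 is a nuclear helicase of the SNF2 family that helps to clear topoisomerase 2 trapped on DNA. LSG1 is a GTPase of the cytoplasm that releases the export adaptor NMD3 from new large ribosomal subunits. CCSAP binds centrioles, cilia and spindle microtubules and is tied to tubulin polyglutamylation. MACIR is a cytosolic partner of UNC119, a carrier of lipidated proteins to the cilium, and is known for tempering macrophage inflammation. MELTF, melanotransferrin, is an iron-binding protein of the transferrin family held on the cell surface by a lipid anchor.

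Deposited median intensities per array lay between 20.1 and 28.9, and arrays of 1 group correlated with r between 0.964 and 0.975 across probe sets. Of 14 markers of pineal photoreceptor and melatonin-making cells 9 were tested, with mean log2 levels between 4.10 for the arrestin gene SAG and 13.2 for TPH1, the first enzyme of melatonin synthesis. The 3-prime over 5-prime ratio of the actin control probes, a measure of RNA integrity, was 3.28 and 3.09 in CT14 light arrays, against 4.67 and 3.95 in CT14 dark arrays, and lay between 3.62 and 4.23 in the other 8 arrays.

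RAD54L2 showed the widest separation of light from dark among the 5 genes. Its leading probe set read 292 and 380.0 intensity units in CT6 light arrays, against 66.7 and 59.0 in CT6 dark arrays. At CT14 the intensities were 307 and 357 in light arrays, against 37.3 and 45.5 in dark arrays. At CT22 they were 292 and 313 in light arrays, against 90.6 and 54.9 in dark arrays. The lowest light array thus lay above the highest dark array of any time. After normalization the light minus dark changes, on the log2 scale, were 2.41 at CT6, 2.87 at CT14 and 2.20 at CT22, each ± 0.17 (standard error of the fit, SE), or 5.31-fold, 7.33-fold and 4.58-fold. The 2 CT22 dark arrays stood further apart than those of the other dark groups, and without the first or the second of them the CT22 change was between 1.97 and 2.43.

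LSG1 lay higher in light by 1.42 ± 0.10 (SE) at CT6, 2.34 ± 0.10 at CT14 and 1.01 ± 0.10 at CT22 on the log2 scale, which is 2.67-fold, 5.06-fold and 2.02-fold. The deposited intensities of its leading probe set were 406 and 412 in CT6 light arrays, against 161 and 138 in CT6 dark arrays. In CT14 light arrays they were 417 and 454, against 74.4 and 82.1 in CT14 dark arrays. In CT22 light arrays they were 591 and 508, against 320.2 and 262 in CT22 dark arrays. Light and dark arrays did not overlap at any time, and what differed most between times was the dark level.

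CCSAP followed nearly the same course at lower precision. Its intensities were 169 and 196 in CT6 light arrays, against 76.9 and 55.6 in CT6 dark arrays. They were 180.2 and 206 in CT14 light arrays, against 37.7 and 27.1 in CT14 dark arrays. They were 305 and 242 in CT22 light arrays, against 169.6 and 110.2 in CT22 dark arrays. Within each time both light arrays lay above both dark arrays, but as deposited the highest dark array of CT22 (169.6) reached the lowest light array of CT6 (169). The log2 changes were 1.49, 2.47 and 1.10 at CT6, CT14 and CT22, each ± 0.22 (SE), or 2.80-fold, 5.54-fold and 2.14-fold. The CT14 value was 2.80 without the first CT14 dark array and 2.14 without the second.

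MACIR had the narrowest light levels of the 5 genes. The leading probe set read 784 and 775 in CT6 light arrays, against 395 and 342 in CT6 dark arrays. It read 789.8 and 728 in CT14 light arrays, against 197 and 251 in CT14 dark arrays. It read 945 and 863 in CT22 light arrays, against 759 and 618 in CT22 dark arrays. The log2 changes were 1.01, 1.65 and 0.44, each ± 0.09 (SE), or 2.01-fold, 3.14-fold and 1.36-fold. The change at CT22 was the smallest among the 6 raised probe sets and the one nearest the threshold of 0.05 on the adjusted p that defined a rise. Over all probe sets, the one just inside this threshold at all 3 times named HSPA5, with changes of 0.39, 0.88 and 1.19, and the one just outside named TPPP, with 0.72, 0.92 and 0.52.

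MELTF had intensities of 339 and 300.0 in CT6 light arrays, against 176 and 159.7 in CT6 dark arrays. In CT14 light arrays they were 266 and 286, against 98.9 and 112 in CT14 dark arrays. In CT22 light arrays they were 453 and 348, against 259.8 and 211 in CT22 dark arrays. The separation held at each time, with log2 changes of 0.89, 1.25 and 0.86, each ± 0.12 (SE), or 1.85-fold, 2.39-fold and 1.81-fold. The CT6 and CT22 changes of MELTF lay within an SE of each other.

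**Figure D1:**
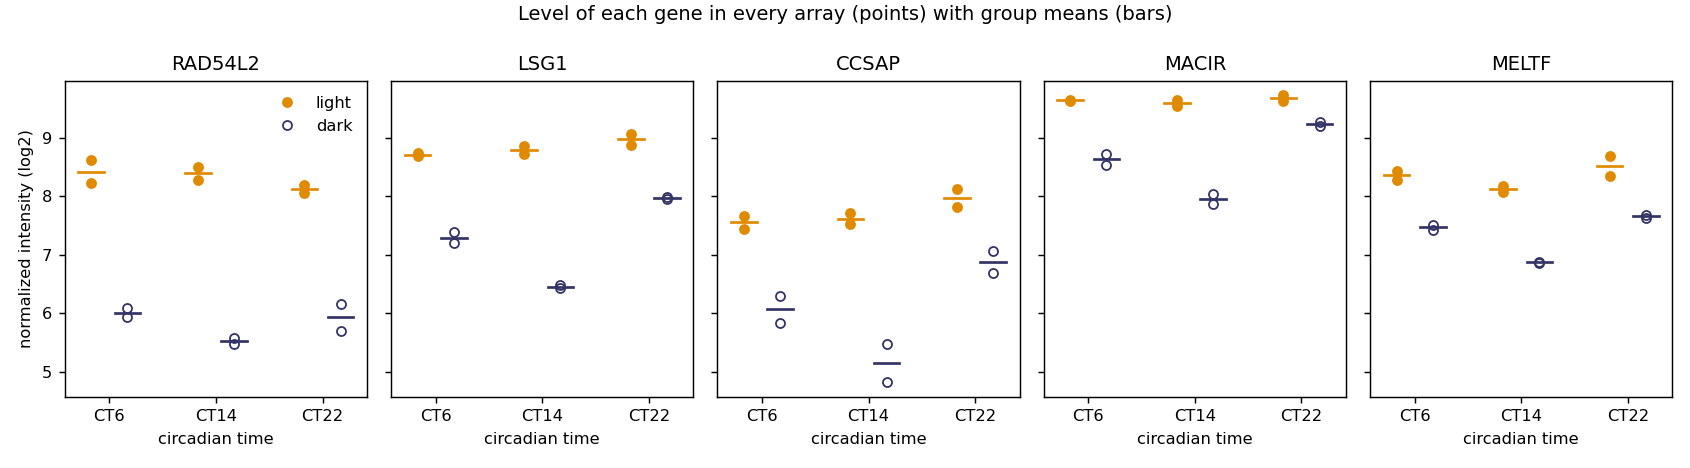
Normalized log2 intensity of the leading probe set of each gene (vertical axis) in every array at CT6, CT14 and CT22 (horizontal axis), with filled points for light, open points for dark and bars for group means of 2 arrays. Light points lie above dark points at each time in all 5 panels, and the dark points are lowest at CT14.

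All of these rises used the thresholds of the series as a whole. At CT6 0.178% of the 23063 tested probe sets lay higher in light past the adjusted threshold, at CT14 1.14% and at CT22 1.73%, and 27 probe sets for 20 genes (0.117% of probe sets) did so at all 3 times. The 6 probe sets and 5 genes described here are among those by construction. Alternative settings rerun that choice on the same arrays. They show how far it depends on processing and are no separate test of the rise. The adjusted p stayed under the threshold at all 3 times in 22 of 22 alternative settings for RAD54L2 and LSG1, in 18 for MELTF, in 16 for MACIR and in 14 for CCSAP. MACIR was no longer called at CT22 when any 1 CT22 array was left out. CCSAP was no longer called without the second CT6 dark array or either CT6 light array at CT6, and without the second CT22 dark or the first CT22 light array at CT22. MELTF was no longer called at CT6 without the second CT6 dark or the first CT6 light array.

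The further probe sets of the same genes did not all show the change. The second MACIR probe set moved with the leading one, with 121 and 144 in CT6 light arrays, against 59.5 and 53.5 in CT6 dark arrays. Its log2 changes were 1.25, 1.62 and 0.74, each ± 0.14 (SE), at CT6, CT14 and CT22. The third MACIR probe set was too dim to be tested, with intensities between 13.1 and 15.6 in the 6 light arrays, against 1.99 to 10.5 in the 6 dark arrays. Its light arrays too lay above its dark arrays.

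LSG1 differed from MACIR in this respect. Its second probe set gave -0.10, 0.06 and -0.38 ± 0.28 (SE) at CT6, CT14 and CT22, and the third gave -0.01, 0.25 and -0.40 ± 0.21. Neither carried the rise that the leading probe set showed. The fourth LSG1 probe set, too dim to be tested, gave -0.81, 0.51 and 1.47 ± 0.69 (SE). The second probe set of RAD54L2 was also dim and noisy, with changes of -0.57, 1.21 and 0.61 ± 0.66 (SE). Which transcript parts these probe sets cover was not tested. The rises of RAD54L2 and LSG1 rest on 1 probe set each, as do those of CCSAP and MELTF, which had no other.

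**Figure D2:**
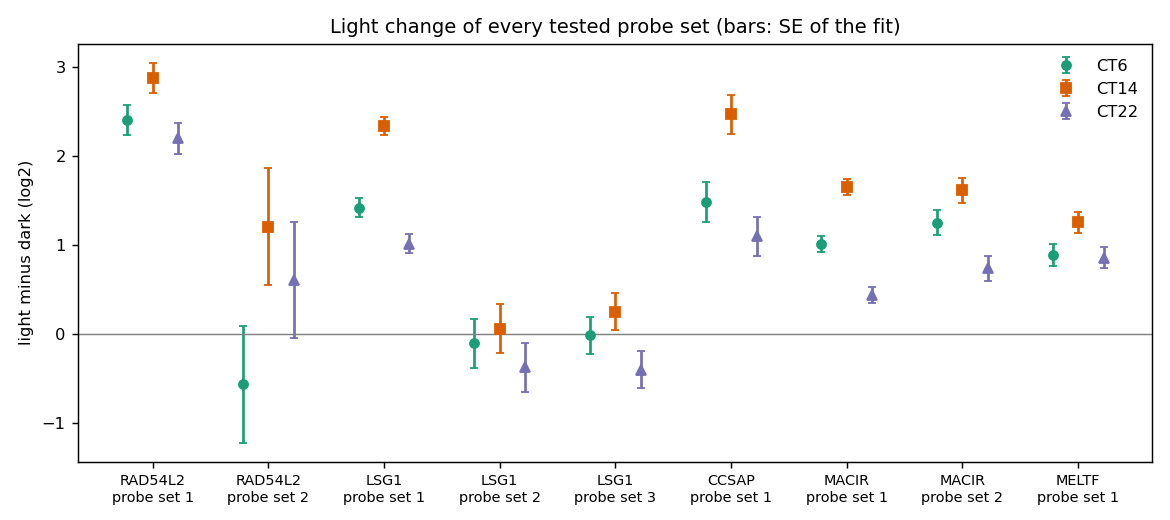
Light minus dark change on the log2 scale (vertical axis) at CT6, CT14 and CT22 for the 9 tested probe sets (horizontal axis), with bars for the SE of the fit. Both MACIR probe sets lie above 0 at all times, while the further probe sets of LSG1 and RAD54L2 scatter about 0.

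By their leading probe sets, the 5 genes shared a pattern, slight in RAD54L2 and modest in MELTF, that the choice did not ask for. Their levels differed over the day more in the dark than in light. The range over the 3 group means, in log2 units, was 0.27 in light and 1.52 in the dark for LSG1. Its further tested probe sets did not show this gap. The second gave 0.32 in light and 0.19 in the dark, and the third 0.30 in light and 0.35 in the dark. For CCSAP the range was 0.42 in light and 1.73 in the dark. For MACIR the range was 0.08 in light and 1.29 in the dark, and its second probe set gave 0.08 in light and 0.96 in the dark. MELTF varied less in the dark, with 0.39 in light and 0.78 in the dark. Both MELTF ranges are CT22 minus CT14, and the light range minus the dark range was -0.40 ± 0.17 (SE). RAD54L2 varied least in the dark, with 0.29 in light and 0.49 in the dark. A difference of its group means had an SE of 0.17, so its light and dark ranges were not resolved from each other. The light range was below the dark range in 5 of 5 genes, in 6 of the 15 other genes raised at all 3 times (40%), and in 54.6% of all 10424 genes. Among those 6 was BIRC8, with 0.13 in light and 0.63 in the dark, and its dark level too was lowest at CT14 and highest at CT22. The median ranges of the 5 genes were 0.29 in light and 1.29 in the dark. Those of the 15 other genes were 0.87 in light and 0.67 in the dark, and those of all genes 0.26 in light and 0.29 in the dark. Light and dark levels both enter the changes that chose the genes, so this contrast is a description, with no test.

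Among dark groups, CT14 was lowest in 5 of 5 genes, against 7 of the 15 others and 34.3% of all genes. CT22 was the highest dark group in 4 of 5, against 7 of the 15 others and 33.4% of all genes. RAD54L2 was the exception, with its CT6 and CT22 dark arrays overlapping. In the dark, CT22 minus CT14 was 1.52 for LSG1, 1.73 for CCSAP, 1.29 for MACIR, 0.78 for MELTF and 0.41 for RAD54L2, on the log2 scale. The light change was largest at CT14 in 5 of 5 genes, against 5 of the 15 others (33.3%) and 32.6% of all genes. This count is not separate from the dark minimum at CT14, since a low dark level under similar light levels makes the change large. It is formed from the changes that chose the genes, and these counts are a description, with no test. The CT14 light and dark arrays also differed in the actin ratio. With that ratio as a covariate, as given below, the CT14 change was smaller for RAD54L2, LSG1, MACIR and MELTF, and not for CCSAP. Over the 22 alternative settings, that fit among them, the lowest CT14 changes of LSG1, CCSAP, MACIR and MELTF were 2.15, 2.04, 1.40 and 1.11. Their highest CT6 changes were 1.53, 1.72, 1.15 and 0.995, and their highest CT22 changes 1.10, 1.28, 0.50 and 1.03. For RAD54L2 the lowest CT14 change, 2.42 with that covariate, was below the highest CT6 change, 2.60, found with 1 array left out. These values come from different fits, so they do not give the order of its times within either fit. The order of the times was not tested.

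**Figure D3:**
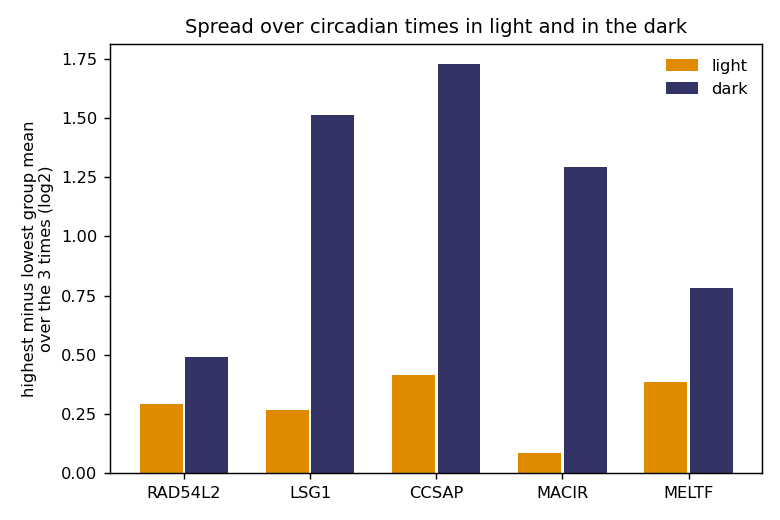
Range of the group means over CT6, CT14 and CT22 in log2 units (vertical axis, from 0) for the leading probe set of each gene, with light bars left of dark bars. The light range is below the dark range in all 5 genes, with 0.29 in light against 0.49 in the dark for RAD54L2 and 0.42 in light against 1.73 in the dark for CCSAP.

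Over the 6 groups, LSG1 and CCSAP had the same order of means, from high to low: CT22 light, CT14 light, CT6 light, CT22 dark, CT6 dark and CT14 dark. In both, arrays of CT14 light and CT6 light overlapped and other neighbours in this order did not. MACIR and MELTF shared the order CT22 light, CT6 light, CT14 light, CT22 dark, CT6 dark and CT14 dark. CT22 light and CT6 light overlapped in both genes, and CT6 light and CT14 light in MACIR alone of the pair. RAD54L2 ran CT6 light, CT14 light, CT22 light, CT6 dark, CT22 dark and CT14 dark, with overlaps between CT6 and CT14 light and between CT6 and CT22 dark.

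Time of day was then tested on the mean of light and dark at each time, in contrasts orthogonal to the changes that chose the genes. Both use the same residual spread of a probe set. A choice by adjusted p favours a small spread, and so a pass here, and the shares over all genes are not a like baseline. By their leading probe sets, LSG1, MACIR, CCSAP and MELTF differed between times and RAD54L2 did not pass. Thus 4 of 5 genes passed, as did 13 of the 15 other genes raised at all times. Of all tested probe sets 7.39% passed, and of all genes 9.05%. The adjusted p of limma's F test was 2.44e-05 for LSG1, 4.93e-05 for MACIR, 0.00253 for CCSAP, 0.00161 for MELTF and 0.394 for RAD54L2. The further tested probe sets of LSG1 did not pass this F test, with 0.824 and 0.898 (limma, adjusted p). They passed in none of the contrasts between times either, so the LSG1 calls rest on its leading probe set. The second MACIR probe set gave 0.0140 (limma), and did not pass without the first CT14 light array (0.0566) or the first CT22 dark array (0.0562).

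CT22 minus CT14 carried this difference in the same 4 genes. LSG1 was higher at CT22 by 0.85 on the log2 scale (limma, adjusted p = 7.62e-06), with 2.88% of probe sets higher in this contrast. Its further tested probe sets gave -0.07 ± 0.19 and 0.02 ± 0.15 (SE), while the further tested probe set of MACIR gave 0.52 ± 0.10. CCSAP was higher at CT22 by 1.04 ± 0.16 (SE, limma adjusted p = 0.000941). MACIR was higher by 0.69 (limma, adjusted p = 1.50e-05) and MELTF by 0.58 (limma, adjusted p = 0.000704). RAD54L2 gave 0.07 ± 0.12 (SE), which did not pass (limma, adjusted p = 0.815). These values are means over light and dark. In the light groups alone CT22 minus CT14 was 0.19 ± 0.10 (SE) for LSG1, 0.35 ± 0.22 for CCSAP, 0.08 ± 0.09 for MACIR and 0.39 ± 0.12 for MELTF. In the dark groups it was larger, with 1.52, 1.73, 1.29 and 0.78 for those genes.

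CT14 minus CT6 was negative in the same test for 3 genes, where 1.79% of probe sets were lower. In the light groups alone it was 0.08 ± 0.10 (SE) for LSG1, -0.04 ± 0.09 for MACIR and -0.23 ± 0.12 for MELTF. Over light and dark together, LSG1 gave -0.38 ± 0.07 (SE, limma adjusted p = 0.0108), MACIR -0.37 ± 0.06 (limma, adjusted p = 0.00589) and MELTF -0.41 ± 0.08 (limma, adjusted p = 0.0164). None of these 3 calls held in every setting. LSG1 lost it without the first CT6 dark or the first CT14 light array, and MELTF without those or the first CT6 light array. All 3 genes lost it without a variance trend, and MACIR and MELTF also with values as deposited. CT22 minus CT6 was 0.47 for LSG1 (limma, adjusted p = 0.00255) and 0.32 for MACIR (limma, adjusted p = 0.0126), where 1.49% of probe sets were higher. MACIR lost that call without a variance trend and without the second CT6 dark, the first CT22 dark or the first CT22 light array. CCSAP gave 0.61 (limma, adjusted p = 0.0522) and MELTF 0.17 (limma, adjusted p = 0.356). In the light groups alone CT22 minus CT6 was 0.27 ± 0.10 (SE) for LSG1 and 0.04 ± 0.09 for MACIR.

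How far the light change differed between times is formed from the same changes that chose the genes, so for these genes the differences are values with no test. Over all probe sets an F test of this difference passed for 1.35%. On the log2 scale, CT22 minus CT14 of the light change was -1.33 ± 0.15 for LSG1, -1.37 ± 0.31 for CCSAP and -1.21 ± 0.13 for MACIR (SE), with -0.88 ± 0.20 in the second MACIR probe set. It was nearer to 0, with -0.40 ± 0.17 for MELTF and -0.68 ± 0.24 for RAD54L2. The further tested probe sets of LSG1 also gave smaller differences, -0.43 ± 0.39 and -0.65 ± 0.29 (SE). CT14 minus CT6 was 0.92 ± 0.15 for LSG1, 0.98 for CCSAP, 0.64 for MACIR, 0.37 for MELTF and 0.47 for RAD54L2. Here the further tested probe sets of LSG1 gave 0.16 ± 0.39 and 0.26 ± 0.29 (SE). CT22 minus CT6 was -0.40 ± 0.15 for LSG1, -0.39 ± 0.31 for CCSAP and -0.57 ± 0.13 for MACIR (SE). For RAD54L2 and MELTF it lay within an SE of 0, with -0.21 ± 0.24 and -0.03 ± 0.17.

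The actin ratio differed between CT14 light and CT14 dark arrays, as given above. With this ratio as a covariate the CT14 light changes were 2.42 for RAD54L2, 2.15 for LSG1, 2.48 for CCSAP, 1.40 for MACIR and 1.11 for MELTF. In that fit the time of day F test kept the calls of LSG1, MACIR, CCSAP and MELTF, while the adjusted p of the CT14 light change went above the threshold for CCSAP, MELTF and the second MACIR probe set. Probe sets past the threshold at CT14 fell from 386 to 18 in it. The CT14 calls of other genes named here were not followed in that fit. Erythrocyte markers (4 of 8 tested, with mean log2 levels between 5.12 and 12.5) had summed log2 levels of 12.56 and 12.67 in CT14 light arrays, against 13.01 and 13.11 in CT14 dark arrays, and 0 passed. Of 6 fibroblast and meninges markers COL1A1 was higher in light at CT14, by 0.84 ± 0.10 (SE, limma adjusted p = 0.000339), with summed levels of 13.20 and 13.27 in CT14 light arrays, against 13.15 and 13.03 in CT14 dark arrays. At CT22 3 of 9 pineal markers (AANAT, PDC and ISL1) and 2 of 5 glial markers (GFAP and MBP) were lower in light past the threshold, and COL1A1 and COL1A2 were higher. Over all genes 1.39% were higher in light at CT14, and at CT22 2.24% were higher and 2.48% lower. Macrophage, endothelium and neuron markers had 0 of 9, 0 of 6 and 0 of 6 past the threshold at any time. The part of these markers in the values of the 5 genes was not tested, and fewer cells of a type and less RNA per cell cannot be told apart in pooled glands.

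The genes nearest to each of the 5 in profile were found by the root mean square difference of the 6 group means, each centred on the gene's own mean, in log2 units. LSG1 and CCSAP were nearest to one another of all 10424 genes, at 0.0938, against a root mean square of 0.911 for LSG1's own profile and 0.987 for CCSAP's. For both, MACIR and MELTF came next, at 0.294 and 0.376 from LSG1 and 0.366 and 0.449 from CCSAP. MACIR was nearest to CXCR4, a chemokine receptor gene, at 0.179, then to MELTF at 0.181 and SPTSSB at 0.184. MELTF was nearest to SPTSSB, a small subunit of serine palmitoyltransferase, at 0.107, then to MACIR and to BIRC8, an inhibitor of apoptosis gene, at 0.185. RAD54L2, with a larger root mean square of 1.26 for its own profile, was nearest to LONRF3 at 0.247, LONRF1 at 0.467 and LSG1 at 0.582. CCSAP came next, at 0.603. The LONRF genes encode RING-finger proteins with a Lon-type domain. Light changed LONRF3 by 1.90, 3.08 and 1.99 on the log2 scale at CT6, CT14 and CT22. The profiles hold the light changes that chose the 5 genes. Nearness among genes raised at every time thus follows in part from that choice. LSG1 enters by its leading probe set alone, and its further tested probe sets did not carry the rise. All profiles also share the same 12 arrays, so these distances are a description.

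Genes of the processes around each of the 5 mostly did not pass, and nor did most genes. Of all tested genes 6.25% passed at any time in either direction. Of 34 SNF2-family helicase and topoisomerase repair genes around RAD54L2 27 were tested, and at CT6 none passed in either direction (0.269% of all genes were higher and 0.0576% lower). At CT14, where 1.39% of all genes were higher and 0.691% lower, 2 rose: the chromatin remodellers CHD7 by 0.62 ± 0.13 (SE, limma adjusted p = 0.0280) and CHD4 by 0.51 ± 0.10 (adjusted p = 0.0187). Neither call was followed with the actin ratio as a covariate. At CT22, where 2.24% of all genes were higher and 2.48% lower, SMARCA4, an ATPase of the SWI/SNF complex, fell by 0.65 on the log2 scale (limma, adjusted p = 0.0435). The list medians were -0.04, 0.09 and -0.13 at CT6, CT14 and CT22, against 0.01, -0.02 and -0.00 over all genes.

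Of 36 genes of large ribosomal subunit assembly and export around LSG1, 27 were tested, with medians of 0.01, -0.00 and -0.01. MDN1, the AAA ATPase of pre-60S maturation, fell by 0.64 at CT22 (limma, adjusted p = 0.0397). No other passed at any time, where 6.25% of all genes did. The few calls in this list and those that follow lie near or below that share, so they are no result about these processes. Of 35 tubulin glutamylation, centriole and axoneme genes around CCSAP, 29 were tested. AGTPBP1, which removes glutamates from tubulin, fell by 0.74 at CT22 (limma, adjusted p = 0.0159) and no other passed, with list medians of 0.02, 0.01 and -0.04. Of 28 genes of ciliary trafficking of lipidated proteins around MACIR 18 were tested and 0 passed, with medians of 0.10, -0.07 and -0.03. Of 30 iron uptake, storage and export genes around MELTF 22 were tested. STEAP4, a metalloreductase, rose by 1.81 ± 0.36 at CT22 (SE, limma adjusted p = 0.0153), with mean log2 levels of 5.0 in CT22 light arrays and a dim 3.19 in CT22 dark arrays, and no other passed. The medians of the iron list were -0.06, -0.06 and 0.04.

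MELTF and LSG1 lie on the same chromosome in the reference gene table, with 9 annotated genes between them, 8 of them protein-coding and tested. Of these 8, 2 passed at any time, where 6.25% of all genes did. This stretch was looked at after the positions were seen. DLG1, a scaffold protein gene beside MELTF, rose by 0.63 ± 0.07 at CT14 (SE, limma adjusted p = 0.000306). BDH1A, the next gene, rose by 0.66 ± 0.10 at CT22 (SE, limma adjusted p = 0.00328). The other 6 passed at no time, among them FAM43A, beside LSG1, with 0.56, 0.25 and 0.60 ± 0.26 (SE).

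**Figure D4:**
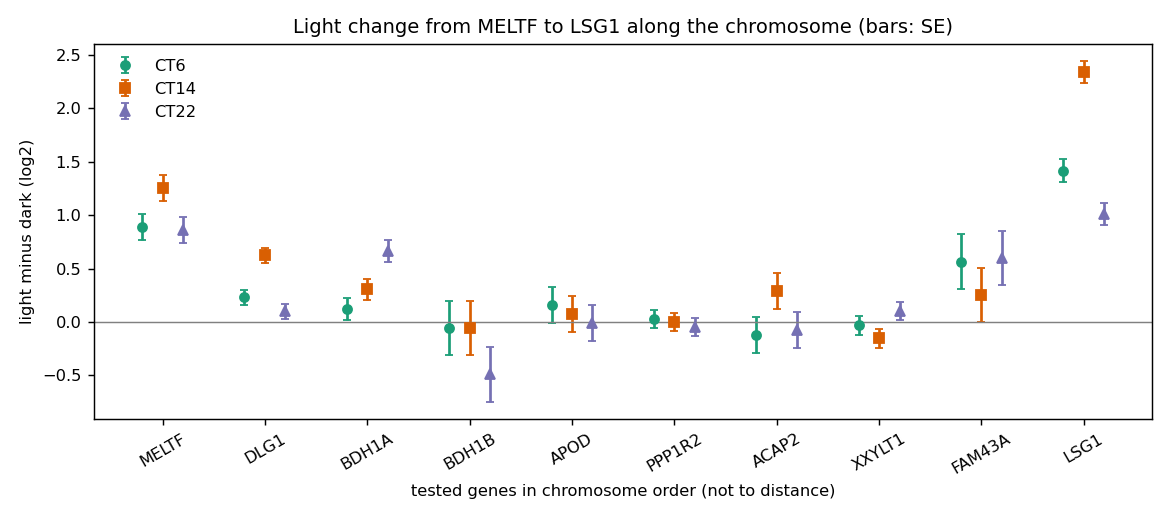
Light minus dark change on the log2 scale (vertical axis) at CT6, CT14 and CT22 for MELTF, LSG1 and the 8 tested genes between them (horizontal axis, in chromosome order and not to distance), with bars for SE. MELTF and LSG1 lie above 0 at all 3 times, and of the genes between them DLG1 passed at CT14 and BDH1A at CT22.

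Around all 5 genes, the 3 nearest tested genes on each side made 30 neighbours, of which 3 passed at any time, where 6.25% of all genes did. Since only tested genes count, other annotated genes could lie between a neighbour and its gene, up to 14 of them. Beside DLG1 and BDH1A the third was GPX1, a glutathione peroxidase gene with 12 annotated genes between it and RAD54L2. GPX1 rose by 0.69 ± 0.11 at CT22 (SE, limma adjusted p = 0.00416). The neighbours' median light changes were 0.03, 0.18 and -0.05 at CT6, CT14 and CT22. Of the nearest tested genes on each side, DLG1 beside MELTF passed, at CT14. The others were SEMA3DL and EMC3 for RAD54L2, FAM43A and ATP13A3 for LSG1, and RAB4A and ACTA1 for CCSAP. They also included NUDT12 and PPIP5K2 for MACIR and PIGZ for MELTF. These others passed at no time.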

How the data were processed

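Each of the 12 arrays was deposited by the authors as linear intensity values per probe set (38535, with 96 controls); how these were summarized and scaled is not given in the sources used here. No detection calls were used. Values were put on the log2 scale, quantile-normalized and floored at 1 (linear), and controls were then dropped. Testing kept the 23063 probe sets whose mean exceeded the percentile 40 limit of 3.73 (log2). One model with 6 group means over all 12 arrays was fitted in limma 3.58.1 (R 4.3.3; eBayes with a variance trend), with Benjamini-Hochberg adjustment over all tested probe sets and a threshold of 0.05. A gene is represented by its tested probe set of highest mean. The fit was tested on simulated data. The genes and lists were chosen with earlier results of these data known. Named are the 5 genes, up to 4 past-threshold genes per list, the 3 most similar profiles, the nearest tested neighbour on each side and neighbours past the threshold. Genes came from the platform annotation and chromosome order from RefSeq genes (27168 probe sets name 1 gene, 18168 of them tested); no coordinates or sequences are given, since the array's build is not stated. For the 5 genes the difference of the light change between times, planned as a test, is given as values only, since it is formed from the changes that chose them. Same-numbered arrays did not deviate together (correlations between -0.03 and 0.03), so numbers were not treated as pairs. Tables were handled in Python 3.11.15 with pandas 2.3.3.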

Additional observations from a re-analysis of the deposited data

How the results depend on the processing

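In 22 alternatives 396 light changes of the 6 raised probe sets stayed above 0, and 361 moved by less than the residual SD; no result reversed. The rise that defined the genes was nonetheless not past the threshold at all 3 times in 8 alternatives for CCSAP, 6 for MACIR, 6 for its second probe set and 4 for MELTF, with adjusted p (limma) of up to 0.239 for CCSAP at CT6, 0.161 for MACIR at CT22 and 0.215 for MELTF at CT14. The time of day F tests of LSG1, MACIR, CCSAP and MELTF and their CT22 minus CT14 differences passed in all 22, and the F test of the second MACIR probe set in 20. Other time of day differences were lost in some: CT14 minus CT6 in 3 for LSG1, 2 for MACIR and 5 for MELTF, and CT22 minus CT6 in 4 for MACIR. Counts of probe sets past the threshold moved as follows. At CT6 51 (41 higher, 10 lower) became 26 (25 higher, 1 lower) as deposited, 250 (243 higher, 7 lower) with arrays centred on their median, 20 with no filter, 98 with a filter at the 60th percentile and 9 without a variance trend, and 19 to 55 with 1 array left out. At CT14 386 (264 higher, 122 lower) became 355 (301 higher, 54 lower) as deposited, 212 with no filter, 105 without a variance trend, 18 with the actin ratio, and 160 to 420 with 1 array left out. At CT22 840 (398 higher, 442 lower) became 509 (166 higher, 343 lower) as deposited, 426 with no filter, 162 without a variance trend, and 234 to 832 with 1 array left out. For the difference of the light change 311 became 172 as deposited, 43 with no filter, 479 at the 60th percentile, 11 without a variance trend, 81 with the actin ratio, and 86 to 375 with 1 array left out. For time of day 1704 became 4455 as deposited and 748 without a variance trend, and 1210 to 1603 with 1 array left out. The causes were not tested. With the replicate number as a block, which the data do not show to pair the arrays, the counts were 42, 353, 758, 244 and 1680, and none of the calls of the 5 genes changed. Changes in dim probe sets, such as the second of RAD54L2, cannot be resolved with 2 arrays a group.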
